A study of Mus musculus with 8 samples.

Results

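Granzymes, perforin and the proteins packed with them in cytotoxic granules were represented by 10 genes: Gzma, Gzmb, Gzmc, Gzmk, Gzmm, Prf1, Srgn, Ctsw, Nkg7 and Cst7. They were chosen by name and not by a cut on measured values, but with earlier results of these data known. All 12 probes whose platform annotation carried 1 of these symbols were taken, of 24048 probes on the array, 19397 of them with a gene symbol and together standing for 14776 genes. Srgn and Nkg7 had 2 probes each, and the other genes had 1.

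The samples were virus-specific CD8 T cells from mouse spleen, sorted 8 days after infection with LCMV-Armstrong, an acutely cleared strain of lymphocytic choriomeningitis virus, by CD8 and by binding of the tetramers DbGP33-41 and DbNP396-404. Of the 8 samples, 4 came from wildtype littermates (WT) and 4 from conditional knockout mice (CKO) of the genotype Blimp-1flox/flox x GranzymeB-cre+, with 1 array each. The floxed gene is cut by a Cre recombinase under granzyme B control, so deletion depends on granzyme B promoter activity in each cell, and cells that escaped it were not counted here. The labels do not say whether the WT littermates carried Cre or a floxed allele, how old the mice were, or whether each sample came from 1 animal. The p-values therefore measure only how these samples spread, and part of that spread may be technical.

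Cytotoxic T cells kill by releasing granules onto a target cell. Perforin forms pores through which granzymes, serine proteases stored with it on the proteoglycan serglycin, reach the target's cytosol, where they cut substrates that lead to its death. Granzymes are made as inactive precursors and trimmed by cathepsin C inside the granule, and in effector CD8 T cells the transcription factors T-bet, Eomes, Runx3 and Blimp-1 are known regulators of the program.

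Values are log2 signals, and a difference is CKO minus WT on that scale. Each array ran from 5.33 or 5.34 to 15.15 with a median of 6.15, so a probe near 6 lies near the signal floor and differences that reach down to it are understated. Probes entered the test when their average across arrays exceeded 6.12, the median of such averages. This left 11991 probes, of which 10 belonged to 8 of the 10 genes, while Gzmb and Gzmc fell below the filter. Of the T cell markers, Cd3d, Cd3e, Cd3g and Cd8b1 lay between 12.69 and 14.71 in all samples, whereas Cd4 stayed between 5.76 and 6.05. The linear signals of those 4 CD8 T cell genes summed to 55825 to 60829 in WT and to 47324 to 54625 in CKO, lower in every CKO sample. None of the 4 passed the test. Cd8b1 differed by -0.33 and Cd3e by -0.38 (limma adjusted p = 0.0898 and 0.0982), Cd3d by 0.06 and Cd3g by -0.06. The part of this in the differences of the granule genes was not tested. The 18S ribosomal RNA control probe was dimmer in WT2 and CKO2, at 11.20 and 10.80, than in the other 6 samples, at 12.47 to 12.99. The Y-linked gene Eif2s3y was bright in WT1 and CKO1, at 10.51 and 10.92, and in no other sample. Prdm1, which encodes Blimp-1, had 2 probes with opposed changes. One fell and the other rose. On the former it was at 7.59, 7.94, 8.07 and 7.51 across WT1 to WT4 and at 6.52, 6.65, 6.29 and 6.53 in CKO1 to CKO4 (limma adjusted p = 0.00121). On the latter it was at 6.11, 5.74, 5.80 and 5.59 across WT1 to WT4 and at 8.93, 9.21, 9.27 and 8.65 in CKO1 to CKO4 (adjusted p = 4.43e-06). The sources used here do not place either probe inside or outside the floxed part, and a probe outside it would not check the labels.

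To show the DNA next to the transcripts that changed, the 250 bases before the start site are printed for the 5 granule genes that passed the test. They come from RefSeq on build GRCm38.p6, 5′ to 3′ on the gene's strand, and 9 of the 10 genes matched that table. Capitals mark matches, on either strand, to any of 4 short motifs: AGNGAAAG for Blimp-1, AGGTGTNA for T-box factors, TGNGGT for Runx factors and TTCNNNGAA for STAT factors. No pair of matches overlapped. The table lists 2 start sites for Gzmm, and the more upstream one is shown.
Gzma, chr13:113100982-113101231, minus strand: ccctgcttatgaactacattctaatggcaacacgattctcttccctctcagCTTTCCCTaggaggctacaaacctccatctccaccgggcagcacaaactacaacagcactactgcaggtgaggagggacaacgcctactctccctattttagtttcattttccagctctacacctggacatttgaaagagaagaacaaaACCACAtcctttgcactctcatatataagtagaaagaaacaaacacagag
Gzmk, chr13:113180966-113181215, minus strand: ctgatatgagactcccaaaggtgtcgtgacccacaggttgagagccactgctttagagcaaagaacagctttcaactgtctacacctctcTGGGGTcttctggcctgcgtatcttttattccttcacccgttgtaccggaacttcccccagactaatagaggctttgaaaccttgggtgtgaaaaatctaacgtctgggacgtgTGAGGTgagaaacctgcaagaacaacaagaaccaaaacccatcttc
Gzmm, chr10:79688770-79689019, plus strand: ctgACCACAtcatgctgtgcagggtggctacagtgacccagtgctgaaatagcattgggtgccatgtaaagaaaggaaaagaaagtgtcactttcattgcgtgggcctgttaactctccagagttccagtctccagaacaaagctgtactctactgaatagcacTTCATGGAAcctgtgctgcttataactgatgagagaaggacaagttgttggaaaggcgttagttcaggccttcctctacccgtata
Prf1, chr10:61297586-61297835, plus strand: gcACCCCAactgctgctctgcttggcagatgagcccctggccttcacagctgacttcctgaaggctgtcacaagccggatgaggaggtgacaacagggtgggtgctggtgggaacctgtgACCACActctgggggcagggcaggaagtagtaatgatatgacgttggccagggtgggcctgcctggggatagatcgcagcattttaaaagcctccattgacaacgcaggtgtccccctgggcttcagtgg
Nkg7, chr7:43436888-43437137, plus strand: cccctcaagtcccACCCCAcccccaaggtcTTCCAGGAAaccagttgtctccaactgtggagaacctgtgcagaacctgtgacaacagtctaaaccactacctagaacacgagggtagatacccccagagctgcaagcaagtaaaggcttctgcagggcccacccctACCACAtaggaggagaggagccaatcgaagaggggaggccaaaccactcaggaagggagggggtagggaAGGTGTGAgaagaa
The Gzma window held 1 Blimp-1 match, 199 bases before the start, and 1 Runx match 50 bases before it. It was the only one of the 11 windows of these genes with a Blimp-1 match, a string found in 7.30% of all 32851 windows of this length. The Nkg7 window held the only T-box match, 14 bases before the start, against 2.68% of all windows. Runx matches stood in 10 of the 11 windows and in 40.1% of all windows, and STAT matches in 2, those of Gzmm and Nkg7, against 7.02%. A match is a string of letters and not a shown binding site.

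In CKO samples the granule genes did not change in 1 direction. Signal fell for Gzma, Prf1, Gzmk and Nkg7, rose for Gzmm, did not pass the test for Srgn, Ctsw and Cst7, and lay near the floor in both groups for Gzmb and Gzmc. Among the 10 tested probes, 5 were lower and 1 was higher in CKO. Over all tested probes, 6.67% passed in either direction, 2.54% lower and 4.13% higher. The groups did not overlap on 6 of the 10 probes, against 13.7% of all tested probes. The median difference of the 10 probes was -0.32, and that of all tested probes was -0.01. The plot of signal by sample shows all 12 probes on 1 scale.

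**Figure D1:**
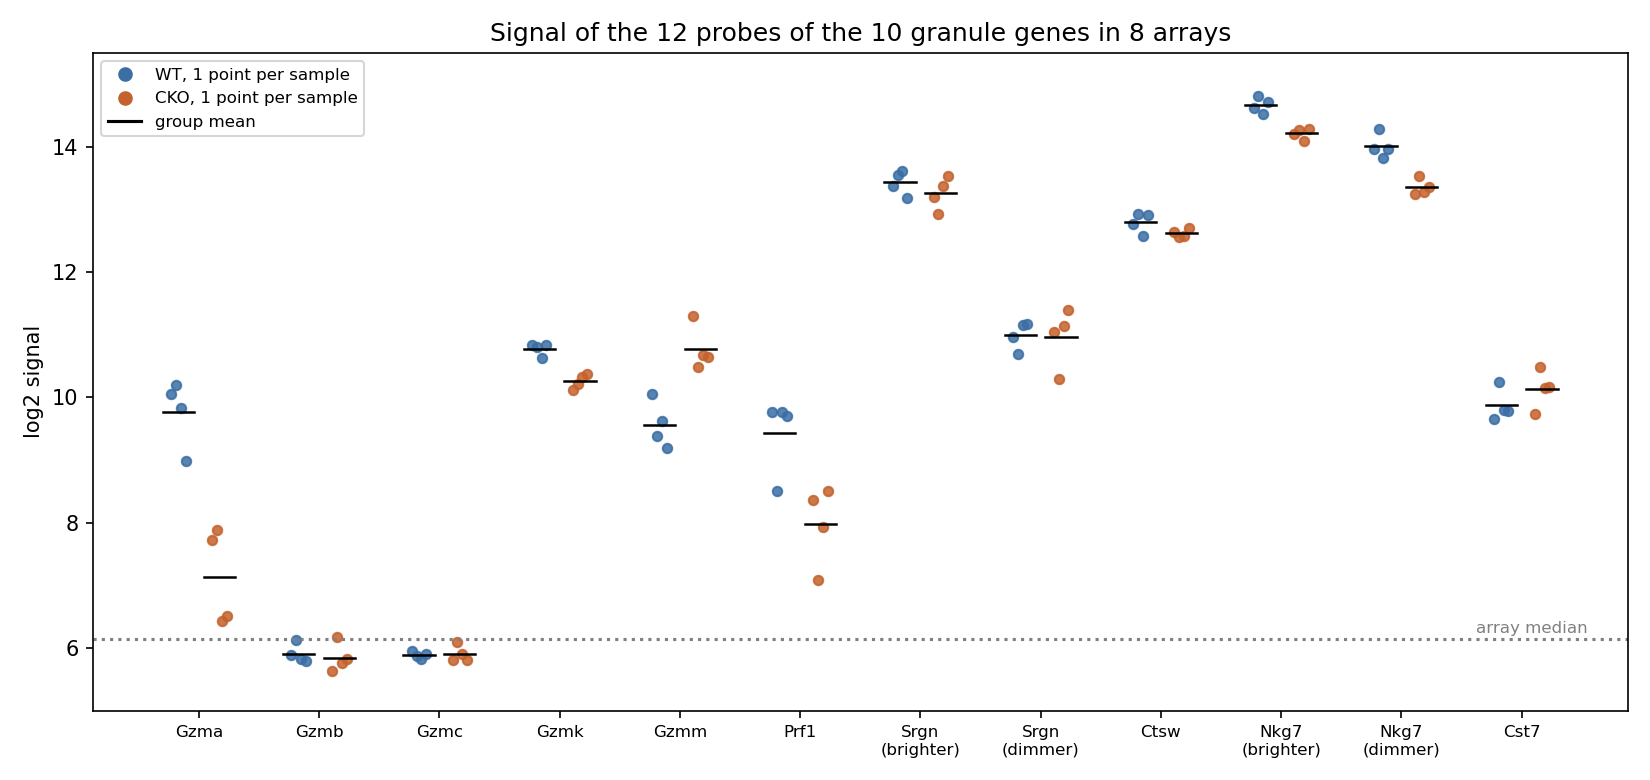
Log2 signal (vertical axis) of each probe of the 10 granule genes (horizontal axis) in the 4 WT and 4 CKO samples, with 1 point per sample in the order 1 to 4, black bars at the group means and a dotted line at the array median of 6.15. Gzma and Prf1 drop and Gzmm rises, Nkg7 and Gzmk shift by less with tight groups, and Gzmb and Gzmc sit below the dotted line apart from 1 CKO value of Gzmb.

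Gzma encodes granzyme A, a protease that cuts after basic residues. It was at 10.05, 10.20, 9.82 and 8.98 across WT1 to WT4 and at 7.72, 7.88, 6.43 and 6.51 in CKO1 to CKO4. Every CKO sample lay below every WT sample, and CKO3 and CKO4 came close to the array median. The mean fell from 9.76 ± 0.54 to 7.13 ± 0.77 (SD, n = 4 each). Log2 signal thus differed by -2.63 (SE 0.37, 95% interval -3.45 to -1.81), the largest shift among the 10 tested probes and 6.19-fold on the linear scale, with a limma adjusted p = 0.00319. Spread within the groups was also wide, with a pooled SD of 0.67 that exceeded those of 98.5% of tested probes. The CKO samples fell into a brighter pair, 1 and 2, and a dimmer pair, 3 and 4, and the difference between same-numbered samples ran from -3.40 for number 3 to -2.32 for number 2. In sorted cells measured in bulk, fewer cells with the transcript and less transcript per cell cannot be told apart.

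Gzmk encodes granzyme K, another protease that cuts after basic residues, and lies next to Gzma on chromosome 13 with no other protein-coding gene starting between them. It was at 10.84, 10.81, 10.63 and 10.83 across WT1 to WT4 and at 10.11, 10.22, 10.32 and 10.37 in CKO1 to CKO4. The groups were narrow and separate. The mean fell from 10.78 ± 0.10 to 10.26 ± 0.12, which is -0.52 (SE 0.10) and 1.44-fold on the linear scale, with an adjusted p = 0.0110. The neighbours thus both fell, but the change of Gzma minus that of Gzmk, taken within each sample, was -2.11 (exact permutation p = 0.0286, the smallest that 4 against 4 allows; adjusted p = 0.0476 over the 10 pairs of genes compared in this way). Among the 10 pairs are those with Gzmm, whose small p was fixed in advance, as described below. They lower the adjusted p of this contrast, so no call is drawn from it. Fits on samples 1 and 2 or on samples 3 and 4 alone gave -0.66 and -0.38 for Gzmk and did not pass (adjusted p = 0.248 and 0.0968).

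Gzmm, granzyme M, a protease known to cut after methionine and leucine and best known from natural killer cells, went the other way. It was at 10.06, 9.38, 9.62 and 9.19 across WT1 to WT4 and at 11.30, 10.48, 10.68 and 10.65 in CKO1 to CKO4. All CKO samples lay above all WT samples, and sample 1 was the highest in both groups. The mean rose from 9.56 ± 0.38 to 10.78 ± 0.36, a difference of 1.22 (SE 0.21, 95% interval 0.74 to 1.69, adjusted p = 0.00887) or 2.32-fold. Same-numbered samples differed by 1.06 to 1.46. The change of Gzma minus that of Gzmm was -3.85, and that of Prf1 minus Gzmm -2.68. The change of Gzmm exceeded those of Gzmk and Nkg7 by 1.74 and 1.87 log2 units. Each of the 4 contrasts had groups that did not overlap (exact permutation p = 0.0286, adjusted p = 0.0476 over the 10 pairs). Gzmm rose and the other genes fell, each without overlap, so this outcome was fixed in advance. It adds nothing to the tests of the single genes.

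Gzmb, granzyme B, which cuts after aspartate and activates caspases, and Gzmc, granzyme C, are neighbours in the granzyme cluster on chromosome 14. The Gzmb probe was at 5.88, 6.12, 5.82 and 5.78 across WT1 to WT4 and at 5.62, 6.17, 5.75 and 5.83 in CKO1 to CKO4. The Gzmc values ran from 5.82 to 5.96 in WT and from 5.80 to 6.09 in CKO. Both groups overlapped on both probes. The means over all samples stood above only 22.9% and 26.1% of all probes, and at this signal a missing transcript and a probe blind to it look alike. With the filter removed, the differences were -0.06 (SE 0.12, adjusted p = 0.919) and 0.01 (SE 0.09, adjusted p = 0.979). Among the 5 further granzymes of the cluster, Gzmd, Gzme, Gzmf, Gzmg and Gzmn, 2 fell below the filter and none of the other 3 passed. The members nearest the threshold were Gzmd at -0.09 (adjusted p = 0.744) and Gzmn at -0.06 (adjusted p = 0.837).

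Prf1 encodes perforin, the pore former. It was at 9.77, 8.51, 9.77 and 9.70 across WT1 to WT4 and at 8.37, 7.08, 7.94 and 8.50 in CKO1 to CKO4. WT2 lay far below the other WT samples and CKO2 was the lowest of the CKO samples. The groups were barely apart, with the lowest WT value at 8.506 and the highest CKO value at 8.503. The mean fell from 9.43 ± 0.62 to 7.97 ± 0.64, a difference of -1.46 (SE 0.35, 95% interval -2.24 to -0.68, adjusted p = 0.0343) or 2.75-fold. Against its own number each CKO sample was lower, by -1.83 to -1.19. WT2 and CKO2 also had the low 18S signal. With both left out the fall was -1.47 (SE 0.14, adjusted p = 0.00105). Leaving out WT1, WT3, WT4 or CKO3 ended the call (adjusted p = 0.103, 0.0968, 0.0872 and 0.09997), as did trend and robust settings of the test (adjusted p = 0.0748), at differences from -1.46 to -1.35.

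Serglycin, from Srgn, is the proteoglycan that holds granzymes and perforin in the granule. On its brighter probe it was at 13.37, 13.56, 13.62 and 13.18 across WT1 to WT4 and at 13.19, 12.93, 13.38 and 13.54 in CKO1 to CKO4. On its dimmer probe it was at 10.97, 10.70, 11.16 and 11.18 in WT and at 11.05, 10.29, 11.13 and 11.40 in CKO, in the same order. The groups overlapped on both. The differences were -0.17 (95% interval -0.50 to 0.16, adjusted p = 0.586) and -0.03 (-0.51 to 0.44, adjusted p = 0.953), and neither passed. On the brighter probe the interval leaves room for a fall of 0.50 but not for 1 of the size measured for Gzma or Prf1.

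Nkg7, a membrane protein of cytotoxic granules that takes part in their release, had both probes near the top of the signal scale. Its brighter probe was at 14.62, 14.82, 14.53 and 14.71 across WT1 to WT4 and at 14.21, 14.28, 14.09 and 14.28 in CKO1 to CKO4. Its dimmer probe was at 13.96, 14.28, 13.83 and 13.97 in WT and at 13.25, 13.54, 13.28 and 13.36 in CKO, in the same order. The groups did not overlap on either probe. Both fell, with differences of -0.46 (SE 0.10, adjusted p = 0.0196) and -0.65 (SE 0.12, adjusted p = 0.00980), or 1.37-fold and 1.57-fold. The array maximum was 15.15. The call on the brighter probe was lost without CKO3 (adjusted p = 0.0772).

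Ctsw, cathepsin W, a cysteine protease restricted to cytotoxic lymphocytes, was at 12.78, 12.94, 12.58 and 12.91 across WT1 to WT4 and at 12.64, 12.56, 12.58 and 12.71 in CKO1 to CKO4. Groups overlapped through WT3, and the difference of -0.18 (95% interval -0.41 to 0.05) did not pass (adjusted p = 0.378). Cst7, cystatin F, which restrains granule cathepsins including cathepsin C, was at 9.66, 10.24, 9.81 and 9.79 in WT and at 9.73, 10.49, 10.16 and 10.16 in CKO. Sample 2 was the highest in both groups. Cst7 was higher than its same-numbered partner in 4 of 4 CKO samples, by 0.07 to 0.37, but the mean difference of 0.26 (95% interval -0.12 to 0.64) did not pass (adjusted p = 0.460, or 0.113 with the replicate number as a block).

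**Figure D2:**
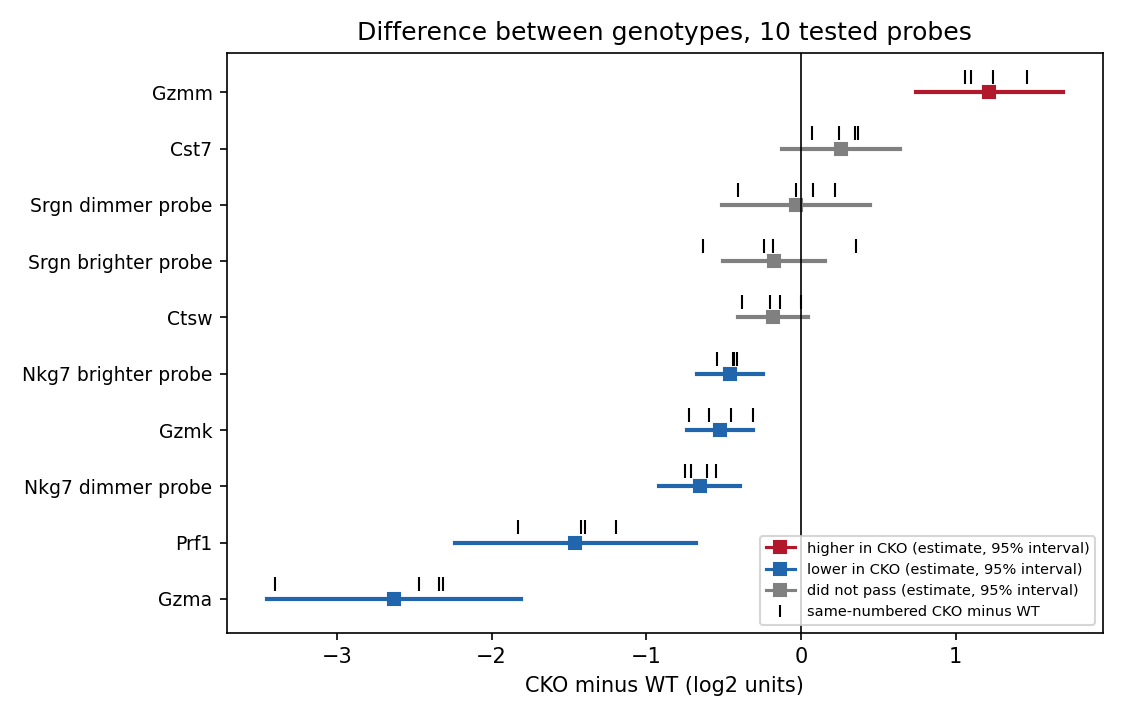
CKO minus WT in log2 units (horizontal axis) for the 10 tested probes, with squares at the estimate, lines for the 95% interval and ticks for the 4 differences between same-numbered samples. Gzma, Prf1, Gzmk and both Nkg7 probes lie left of 0 with all 4 ticks on that side, Gzmm lies right of 0, and the intervals of Srgn, Ctsw and Cst7 cross 0.

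Estimates differed in size among the genes that fell. A low adjusted p over the 10 pairs leans on the Gzmm contrasts, which were fixed in advance, and no call is drawn from it. Beyond the contrasts given above, the change of Gzma minus that of the dimmer Nkg7 probe was -1.98 (exact permutation p = 0.0286, adjusted p = 0.0476). The change of Gzma minus that of Prf1, at -1.17 with overlapping groups, did not pass (exact permutation p = 0.200, adjusted p = 0.222), nor did Prf1 minus Gzmk, at -0.94 (exact permutation p = 0.0857, adjusted p = 0.122). Prf1 minus Nkg7 was -0.81 and Nkg7 minus Gzmk -0.13 (exact permutation p = 0.200 and 0.286; adjusted p = 0.222 and 0.286). These 10 pairs held each of the 5 genes by its probe of largest difference. The Gzma values of CKO3 and CKO4, near the floor, enter those with Gzma. The permutations ignored the replicate numbers. Pairs here are samples with the same number in their titles. The labels state no pairing, and numbers 3 and 4 are not told apart. Within same-numbered pairs, Gzma minus Prf1 lay between -1.57 and -0.90, Prf1 minus Gzmk between -1.52 and -0.67, and Prf1 minus Nkg7 between -1.28 and -0.58, below 0 in 4 of 4 pairs each. An exact sign-flip test over 4 pairs, added after the data were seen, cannot go below p = 0.125, and each of these 3 contrasts gave that value.

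The genes around the granule were read from a list of 57 genes in 6 groups, the granzymes Gzmd, Gzme, Gzmf, Gzmg and Gzmn among them. Of these, 54 had a probe and 42 were tested, each by its brightest probe. Signal rose for 6 of them and fell for 6, together 28.6%, while 30 missed the threshold. The 6 that rose include Prdm1, the floxed gene itself, and the list was written with earlier results of these data known. Prdm1 and Lta, also among the 6, had WT means below the filter, at 5.81 and 5.99, and entered the test only through their CKO values. The share past the threshold among all 8095 tested genes was 7.77%, 4.73% higher and 3.04% lower. The median difference of the list was 0.01, against -0.01 over all genes. The plot of pathway differences shows the 42 genes by group.

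The machinery that stores and moves the granules passed in 1 of 9 and 1 of 14 tested genes (11.1% and 7.14%), near the 7.77% of all genes. Of the 9 proteases and membrane proteins of the granule, Lamp1, the lysosomal membrane protein that appears on the cell surface during granule release, rose from 10.08 ± 0.14 to 10.66 ± 0.08 (1.49-fold, adjusted p = 0.00772). The other 8 did not pass. Ctsc, the cathepsin that activates granzymes, was at 10.50 ± 0.28 in WT and 10.38 ± 0.28 in CKO (adjusted p = 0.746). Of the 14 genes of transport and release, Rab37, a Rab GTPase of secretory vesicles, rose from 8.92 ± 0.23 to 9.54 ± 0.12 (1.54-fold, adjusted p = 0.0152), and 13 did not pass. Rab27a, which docks granules at the membrane, was at 10.44 ± 0.17 in WT and 10.71 ± 0.30 in CKO (adjusted p = 0.381). Ctsc and Rab27a were chosen after their values were seen. Of 2 tested serpins, intracellular protease inhibitors, Serpinb6a rose from 9.73 ± 0.26 to 10.42 ± 0.19 (1.61-fold, adjusted p = 0.0196), and the other did not pass.

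**Figure D3:**
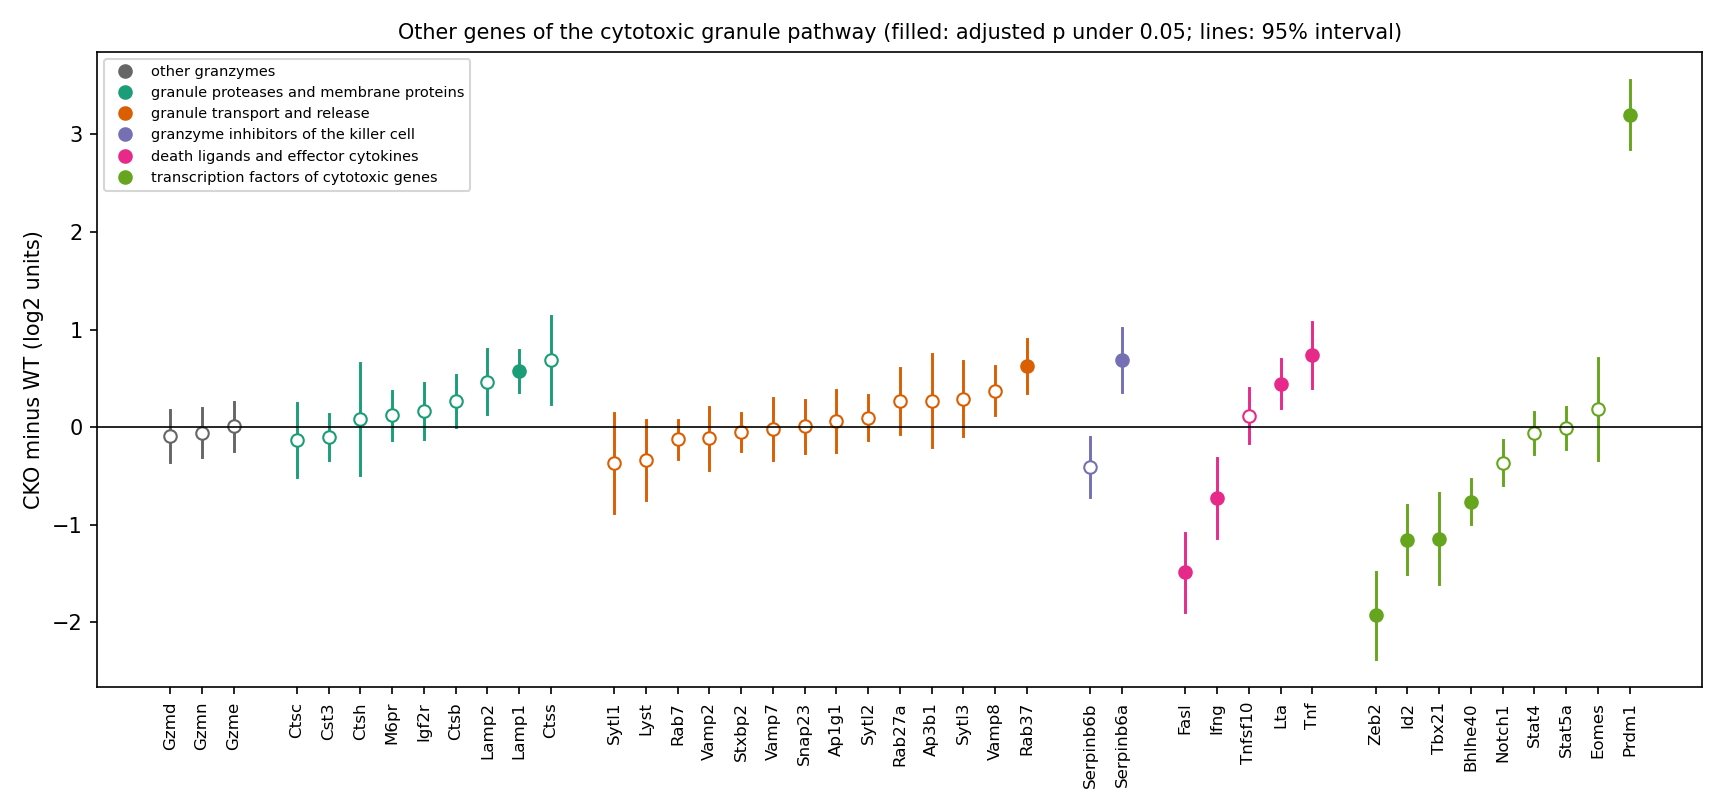
CKO minus WT in log2 units (vertical axis) for the 42 tested genes of the cytotoxic granule list (horizontal axis), coloured by group, with circles at the estimate, filled where the adjusted p is under 0.05, and lines for the 95% interval. Filled circles make up 0 of 3 granzymes, 1 of 9 proteases and membrane proteins and 1 of 14 transport genes, near the 7.77% of all genes, and 4 of 5 ligands and cytokines and 5 of 9 transcription factors, the floxed gene Prdm1 among them.

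Death ligands and cytokines, which act beside the granules, went both ways. Fasl, the ligand that triggers death through Fas, was at 9.997, 9.62, 9.79 and 10.06 across WT1 to WT4 and at 8.44, 8.76, 7.85 and 8.46 in CKO1 to CKO4, with no overlap. It fell by 1.49 log2 units (SE 0.18, adjusted p = 0.00170). Ifng, interferon gamma, fell from 9.17 ± 0.23 to 8.44 ± 0.37 with overlapping groups (adjusted p = 0.0455). Tnf rose from 6.38 ± 0.22 to 7.12 ± 0.27 (adjusted p = 0.0179), and Lta, lymphotoxin alpha, from 5.99 ± 0.10 to 6.43 ± 0.19 (adjusted p = 0.0408), where the WT values lay near the floor. The WT mean of Lta was below the filter of 6.12, so this gene entered the test only through its CKO values. The other gene of this group did not pass.

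Among 9 tested transcription factors, 4 fell. These were Zeb2, a factor of terminal effector cells, from 9.38 ± 0.28 to 7.46 ± 0.39 (adjusted p = 0.000874), Id2, an inhibitor of E proteins, from 13.04 ± 0.22 to 11.89 ± 0.30 (adjusted p = 0.00313), Tbx21, which encodes T-bet, from 11.69 ± 0.24 to 10.55 ± 0.45 (adjusted p = 0.0106), and Bhlhe40 from 12.09 ± 0.14 to 11.32 ± 0.12 (adjusted p = 0.00289). Prdm1 counts among the genes that rose, through the brighter of its 2 opposed probes, which entered the test only through its CKO values. Eomes, the T-box relative of T-bet, averaged 9.78 ± 0.39 in WT and 9.97 ± 0.42 in CKO (adjusted p = 0.722), and is named here after its values were known. The Runx3 probe lay below the filter, at 6.07 ± 0.10 in WT and 6.08 ± 0.02 in CKO, and was not tested.

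For each granule gene that passed, the 3 genes with the most similar profile were found among 8085 others, by the root mean square distance over the 8 arrays between log2 values centred on the WT mean. Nearest to Gzma were S1pr5, a sphingosine-1-phosphate receptor, at 0.56, Klrg1, a lectin-like receptor, at 0.57, and Sema4a, a semaphorin, at 0.65. Nearest to Prf1 were Il18rap, a chain of the interleukin 18 receptor, at 0.44, Itgax, an integrin chain, at 0.45, and Anxa1, annexin A1, at 0.50. Those of Gzmm were Rrp12 at 0.29, Scml4 at 0.29 and Arxes2 at 0.33. Distances were shorter for the genes with small, tight shifts. For Nkg7 they were 0.07 for Lasp1, 0.08 for Rap1b and 0.10 for Fam89b, and for Gzmk 0.09 for Gimap7, 0.10 for Itgal and 0.10 for Lgals8. No test was made of these distances, which scale with the size of the change and its spread.

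Markers of other cells that carry granules, or that a sort could let through, were read beside these genes. Of 8 natural killer cell genes, 5 lay below the filter, among them the defining marker Ncr1, and none passed. Their summed linear signal ran from 1002 to 1842 in WT and from 620 to 2467 in CKO. The highest sum was that of CKO4, where Fcer1g and Tyrobp were at 10.56 and 9.09 but Klrb1c was at 6.65 and Ncr1 at 5.80. CKO4 also had the highest sum of the macrophage and monocyte genes, 2759. Fcer1g ran from 7.95 to 8.73 in WT and from 7.25 to 10.56 in CKO, and Tyrobp from 7.35 to 8.05 and from 6.67 to 9.09. Klrb1c was at 9.95, 9.91, 6.72 and 8.04 in WT1 to WT4, whereas the CKO samples ran from 6.63 to 6.77 (adjusted p = 0.0885). In WT3, where Klrb1c was at 6.72, Gzma was at 9.82 and Prf1 at 9.77. The Klra4 probe had no value in WT4 and CKO2, and their sums leave it out. Of 6 mast cell and basophil genes, 5 lay below the filter and none passed, with sums of 355 to 397 in WT and 360 to 391 in CKO. Of 6 neutrophil genes, Camp and Ltf fell, from 6.96 to 7.33 in WT to 6.18 to 6.48 in CKO for Camp (adjusted p = 0.00345), and Elane lay below the filter. The other tested genes, S100a8, S100a9 and Ngp, were lower by -0.60, -0.50 and -0.40 and did not pass (adjusted p = 0.444, 0.550 and 0.261). Of all tested genes, 3.04% passed lower. The sums of the 6 neutrophil genes were 813 to 2150 in WT against 686 to 1057 in CKO. The part of natural killer cells, mast cells and neutrophils in the differences of the granule genes was not tested.

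Other cell types varied between samples as well. Of 4 erythroid genes 3 had a probe, and none passed. Hba-a1, alpha globin, was at 13.28, 13.68, 12.33 and 12.08 across WT1 to WT4 and at 13.68, 8.29, 6.60 and 7.67 in CKO1 to CKO4, with sums over the list of 4579 to 14000 in WT and 234 to 13848 in CKO. In CKO1, where Hba-a1 was at 13.68, Gzma was at 7.72, Prf1 at 8.37 and Gzmm at 11.30. The part of erythroid cells in the differences of the granule genes was not tested. Of 7 macrophage and monocyte genes 5 had a probe and none passed, with sums of 511 to 1023 in WT and 470 to 2759 in CKO, the highest in CKO4. Without CKO4 the difference of Gzma was -2.42, of Prf1 -1.64 and of Gzmm 1.26 (adjusted p = 0.0108, 0.0394 and 0.0216). Samples kept in that fit also held Lyz2 signal, at 8.87 in WT3, 8.75 in WT4 and 8.47 in CKO3. The part of macrophages and monocytes in the differences of the granule genes was not tested. Of 5 B cell genes 3 had a probe and none passed, with sums of 407 to 679 in WT against 374 to 441 in CKO. All 3 CD4 T cell genes lay below the filter, with sums of 172 to 195 in WT and 175 to 182 in CKO.

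**Figure D4:**
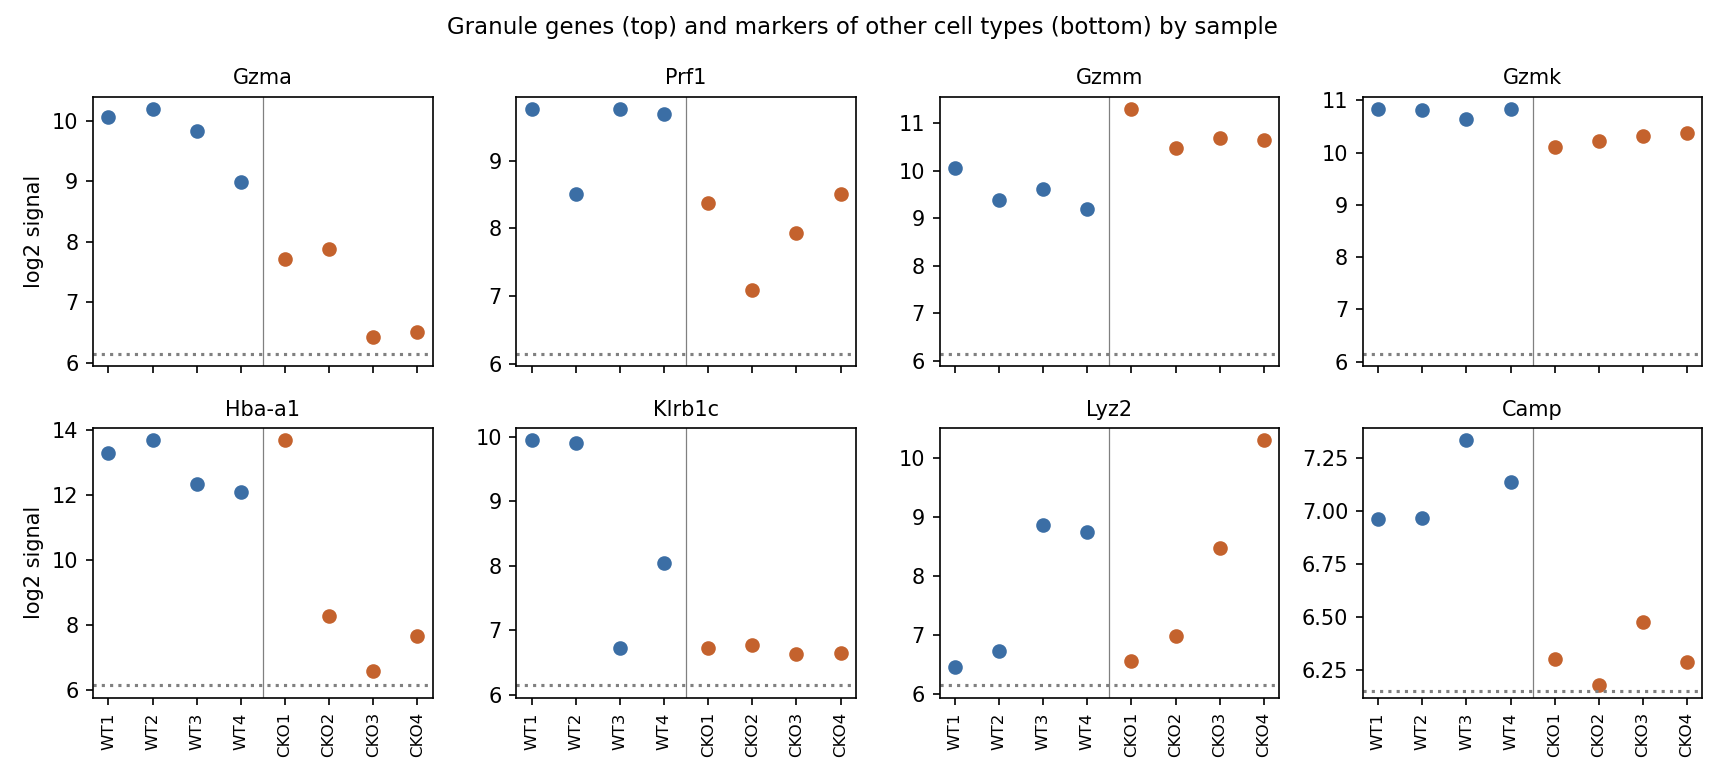
Log2 signal (vertical axes) in WT1 to WT4 and CKO1 to CKO4 (horizontal axes) for 4 granule genes in the top row and for 1 marker each of erythroid cells (Hba-a1), natural killer cells (Klrb1c), macrophages (Lyz2) and neutrophils (Camp) in the bottom row, with dotted lines at the array median. Globin is low in CKO2 to CKO4 only, Klrb1c is high in 3 WT samples, Lyz2 is highest in CKO4 at 10.30, and Camp is lower in every CKO sample than in any WT sample.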

How the data were processed

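The table the authors deposited holds log2 signals of 8 arrays, with 0.952% to 1.31% of values missing per array and none among the 12 granule probes. Near-equal quantiles show that they were normalized between arrays. Scanner, background correction and method of normalization: not given in the sources used here. Per the labels' protocols, an Illumina kit served to amplify the RNA and label it with biotin. Precision is limited by the number of arrays.

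Gene symbols came from GEO's platform annotation, with other genes updated by gene ID through RefSeq (GRCm38.p6). The name given to the 18S control probe was dropped. Genes without a matching symbol were not analysed here. Groups were taken from sample titles. The values were used without further normalization. A linear model per probe with a moderated two-sided test (limma 3.58.1, lmFit and eBayes; R 4.3.3) gave CKO minus WT. Its p-values were adjusted by Benjamini and Hochberg's method across all 11991 tested probes, with 0.05 as threshold. SE is the moderated standard error. Single contrasts between genes used exact two-sided permutation over samples. The fit was tested on simulated data, with noise drawn independently for each probe and array. That does not check the calls against shifts shared across a sample or between same-numbered samples.

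The genes, lists and alternatives were chosen with earlier results of these data known. Named were all 10 granule genes, the listed genes past the threshold (or the 2 with the smallest p in a group without any), some of the markers, and the 3 nearest profiles. Markers of other cell types were given as sums over their lists, and only a part of them singly. Ctsc, Rab27a, Eomes and Runx3 fall outside this rule and were named after their values were seen.

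Sample titles number 1 to 4 in each group. Across probes, departures from the group's mean correlated at 0.318, 0.468, 0.178 and 0.224 between same-numbered samples, above the limit of 0.1, so the number was also fitted as a block. Crossing numbers 3 and 4 (WT3 and CKO4, WT4 and CKO3) gave 0.254 and 0.263, so numbers 3 and 4 are not told apart.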

Additional observations from a re-analysis of the deposited data

Results flagged for a closer look

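Within groups of 4 samples, 2 of 24 checked held a sample whose distance from its nearest neighbour took up more of the group's range than Dixon's limit at the 95% level, which chance passes in about 1 in 20 groups. Prf1 in WT2 was at 8.51, against 9.70 for the nearest WT sample. Leaving out WT2 gave a difference of -1.77 for Prf1 (limma adjusted p = 0.00994). WT2 and CKO2 had the lowest 18S signal, and CKO2 was the lowest CKO sample for Prf1. Gzmk in WT3 was at 10.6336, against 10.8077 for the nearest WT sample, a small gap in a narrow group.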

How the results depend on the processing

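Gzma kept its direction and its call in all 20 alternatives, from -2.94 to -2.25. No difference past the threshold changed sign. Leaving out 1 sample gave 363 to 986 probes past the threshold instead of 800, with 451 without WT1, 514 without WT3, 363 without CKO3 and 492 without CKO4. It gave 4 to 6 of the granule probes instead of 6, and 8 to 12 of the other granule genes instead of 12. By gene the ranges were -2.89 to -2.40 for Gzma, -0.57 to -0.47 for Gzmk, 1.04 to 1.38 for Gzmm, -1.77 to -1.16 for Prf1, -0.50 to -0.41 and -0.72 to -0.56 for the Nkg7 probes, and calls were lost only for Prf1 and the brighter Nkg7 probe. Samples 1 and 2 alone gave 21 probes, 1 granule probe (Gzma) and 1 other granule gene, with Gzmk at -0.66, Gzmm at 1.17, Prf1 at -1.41 and the Nkg7 probes at -0.48 and -0.73 losing their calls. This fit has only 2 samples a group. Samples 3 and 4 alone gave 1243 probes, and Gzmk at -0.38 and the brighter Nkg7 probe at -0.44 lost theirs. With both samples numbered 1 left out, 343 probes, 2 granule probes and 6 other granule genes passed, and Gzmk at -0.45, Prf1 at -1.48 and the Nkg7 probes at -0.47 and -0.64 did not. Trend and robust settings left Prf1 at -1.46 without a call. Array weights gave 1700 probes and the replicate block 1360, and both kept 6 granule probes past the threshold (1 higher, 5 lower). The block changed no call among the granule genes. Where no cause follows from fewer samples, the cause was not tested. Signal near the floor limits Gzmb and Gzmc, and the Gzma values of CKO3 and CKO4.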
